A study of Mus musculus with 12 samples.

Results

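The lysosome digests proteins, glycans and lipids delivered to it by endocytosis, phagocytosis and autophagy, and macrophages are among the cells richest in it. A set of 40 mouse genes for lysosomal hydrolases, the proteins that activate or accompany them, lysosomal membrane proteins, the vacuolar proton pump (V-ATPase) and a pair of transcription factors was followed here in macrophages sorted from bone marrow. Members were chosen by name, as the rows of the count table that carry the 40 symbols. All 40 were found among the 56832 gene entries, and all 40 passed the filter on low counts that left 15758 genes to test.

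Leukemic mice had received transplanted cells of a bcCML leukemia model and were at a late stage of disease, with the libraries labelled day 11. Non-leukemic mice were healthy. There were 3 libraries each from female leukemic, male leukemic, female non-leukemic and male non-leukemic mice. In both conditions cells positive for CD45 and F4/80 and negative for Ly6g and Ly6c were sorted, and RNA was amplified as cDNA before sequencing. The labels give no strain, age or healthy transplant control, and give no animal numbers, so replicates may share an animal and each p below measures the spread between libraries. In bulk RNA, fewer cells of a type and less RNA per cell cannot be told apart.

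Most lysosomal hydrolases are made as inactive precursors, are sorted to the lysosome by mannose 6-phosphate or sortilin receptors, and work at acid pH. The V-ATPase supplies that acid: its V1 sector hydrolyses ATP in the cytosol and drives protons through the V0 sector in the membrane. The transcription factors TFEB and TFE3 enter the nucleus when mTORC1 is inactive and bind E-box motifs in the promoters of many lysosomal genes. A macrophage uses these proteins to break down engulfed cells and to process antigen.

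Total counts were 22437689 to 30014855 in leukemic libraries and 16911827 to 26611831 in non-leukemic libraries. Levels are in CPM, counts scaled by the total of their library, and fold changes are log2 values of leukemic over non-leukemic from edgeR with its TMM scaling, given as estimate ± standard error. The sorted material carried transcripts of other cell types, and their levels moved with leukemia. A gene is said to rise or fall where its edgeR adjusted p was under 0.05, as 8.71% of all genes rose and 9.20% fell. Of 16 macrophage markers, 0 rose and 9 fell, with a summed level of 496 to 1151 CPM in leukemic libraries, against 1362 to 4877 CPM in non-leukemic libraries. Adgre1, which encodes F4/80, was at 28.4 to 60.6 CPM in leukemic libraries and 75.9 to 258 CPM in non-leukemic libraries (-1.25 ± 0.30, edgeR adjusted p = 0.0129). Ptprc, which encodes CD45, was at 259 to 811 CPM in leukemic libraries and 305 to 425 CPM in non-leukemic libraries (0.64 ± 0.18, adjusted p = 0.0238). All 10 erythroid markers fell, with sums of 720 to 1429 CPM in leukemic libraries and 14765 to 19258 CPM in non-leukemic libraries. Of 13 neutrophil markers 9 fell, with sums of 12985 to 27891 CPM in leukemic libraries and 29173 to 68052 CPM in non-leukemic libraries. All 12 T and NK cell markers rose, at 1156 to 2498 CPM in leukemic libraries and 274 to 551 CPM in non-leukemic libraries. Of 13 eosinophil, basophil and mast cell markers 5 rose and 2 fell, with sums of 11365 to 36238 CPM in leukemic libraries and 5724 to 11254 CPM in non-leukemic libraries. None of 8 B and plasma cell markers passed, and their sums spanned 2936 to 45151 CPM in leukemic libraries and 3065 to 15561 CPM in non-leukemic libraries. Of 8 monocyte markers 1 rose and 1 fell, of 8 dendritic markers 2 rose and 3 fell, of 6 tested osteoclast markers 0 rose and 2 fell, and of 5 megakaryocyte markers 1 rose and 1 fell. No listed cell marker was at 0 throughout a condition. The part of these cells in the lysosomal results was not tested.

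Lysosomal genes did not move as a block in leukemia. The lysosomal beta-galactosidase gene Glb1 rose, and Ctsb, Tpp1, Atp6v0d1, Atp6ap1 and Atp6v1e1 fell (edgeR, adjusted p under 0.05). Rises were therefore seen in 1 of 40 members, or 2.50%, where 8.71% of all genes rose, and falls in 5 of 40, or 12.5%, where 9.20% of all genes fell. In either direction 15% of members passed, against 17.9% of all genes, so the share of members called lay near the background. Over all genes 1373 rose and 1449 fell, so 48.7% of calls were rises. With column totals in place of TMM factors 1673 rose and 1119 fell, and rises were 59.9% of calls. The median log2 fold change of the members was -0.19 beside -0.01 over all genes tested, with 13 members above 0 and 27 below. Member values ran from -0.69 for Ctsb to 0.63 for Glb1. Atp6v1a, Atp6v1c1 and Atp6v1h, at -0.07, -0.07 and -0.04, changed sign with column totals and did not with RLE size factors or DESeq2. By the ranges of CPM alone, all 6 leukemic libraries lay above all 6 non-leukemic libraries for 1 member, Glb1 (5.05% of all genes), and below them for 1 member, Ctsb (3.63% of all genes). The number of members that fell depended on single libraries. It was 0 without male leukemic replicate 2, 1 without male leukemic replicate 3 or female leukemic replicate 3, 2 without male leukemic replicate 1 or female non-leukemic replicate 2, 3 without male or female non-leukemic replicate 1, and 8 without female leukemic replicate 1. The number of all genes that fell moved too, over 1025 to 1952 with single libraries left out. It was under 1449 in each fit where 0 to 3 members fell, and 1952 without female leukemic replicate 1. The swing is therefore not shown to be particular to the members. The number of members that rose was 2, Glb1 and Gla, without female leukemic replicate 3.

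**Figure D1:**
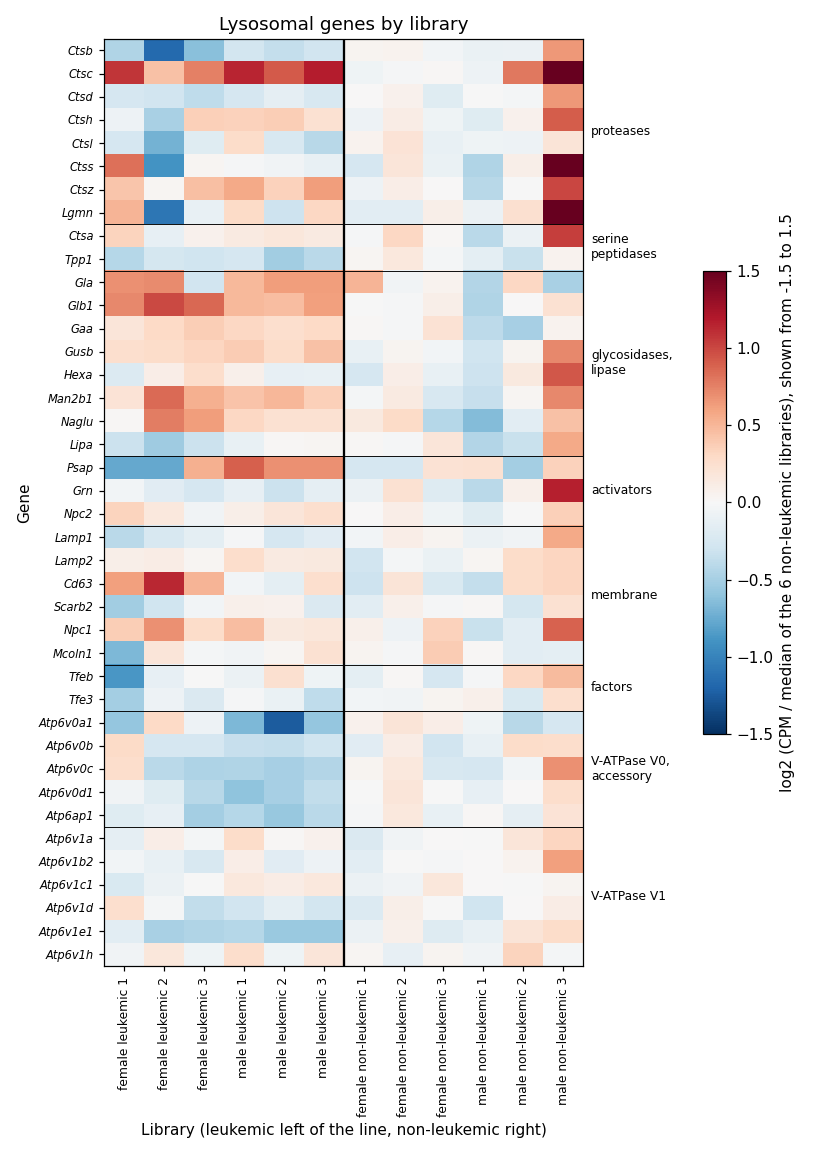
Heat map of the 40 lysosomal genes (rows, grouped by role) in the 12 libraries (columns, leukemic left of the line). Colour is log2 of CPM over the median of the 6 non-leukemic libraries, limited to between -1.5 and 1.5. Male non-leukemic replicate 3, the last column, is the highest non-leukemic library in 31 of 40 genes, and the V0 rows are mostly below the non-leukemic median in leukemic libraries.

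A single non-leukemic library carried much of the spread. It was singled out because it was already known to be high for these genes, so its values are a description and nothing is read from them. The summed member level was 8591 to 10482.5 CPM in the 6 leukemic libraries, with a median of 9646, and 8611 to 9794 CPM in 5 of the non-leukemic libraries. In the sixth, male non-leukemic replicate 3, it was 14839.7 CPM (Wilson 95% interval 14791 to 14889, counting error only). That library was the highest of the 6 non-leukemic libraries in 31 of 40 members and the highest of all 12 libraries in 25 of 40 members. Its level over the median of the other non-leukemic libraries had a median of 1.43 over the members. The ratio was 3.64 for Lgmn, 3.43 for Ctsc, 3.01 for Ctss and 2.38 for Grn, and was lowest for Gla at 0.692. By role its median was 1.98 for cysteine and aspartic proteases, 1.51 for glycosidases and lipase, 1.20 for V0 and accessory subunits and 1.17 for V1 subunits. In the same library the macrophage markers summed to 4877 CPM, against 1362 to 1849 CPM in the other non-leukemic libraries, and Adgre1 was at 258 CPM, against 75.9 to 112 CPM. Monocyte markers summed to 1745 CPM there, against 705 to 1067 CPM, and osteoclast markers to 1388 CPM, against 521 to 882 CPM. Their part in the high lysosomal level of that library was not tested.

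Without male non-leukemic replicate 3 more members rose. Since that library was picked for its high level of these genes, leaving it out raises their fold changes by construction, and the shares of all genes below give the background without a contrast to be drawn from them. Then 16665 genes were tested, and 7 members rose (Glb1, Gaa, Gusb, Man2b1, Naglu, Ctsc and Ctsz) and 6 fell (the 5 above and Ctsd). That is 17.5% of members rising, beside 9.67% of all genes, and 15% falling, beside 9.94% of all genes. All 6 members called with 12 libraries were called again, with the same directions, and 7 were added. The member median was -0.04, beside -0.00 over all genes, with 18 members above 0 and 22 below. The CPM ranges of leukemic and the remaining non-leukemic libraries did not overlap for 3 members that were higher (Glb1, Gusb and Man2b1, where 6.64% of all genes were higher in this way) and for 1 that was lower (Ctsb, where 7.23% were). Female leukemic replicate 1 had the fewest genes detected, 17891, where the other libraries had 19521 to 21247. Without it 1 member rose and 8 fell, and 24.1% of all genes passed in either direction. Without both libraries 7 rose and 9 fell, where 14.9% of all genes rose and 14.1% fell, and all 13 members called without the male library alone were among them. The 3 added there were Lamp1, Atp6v0b and Atp6v0c, all lower in leukemic libraries.

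**Figure D2:**
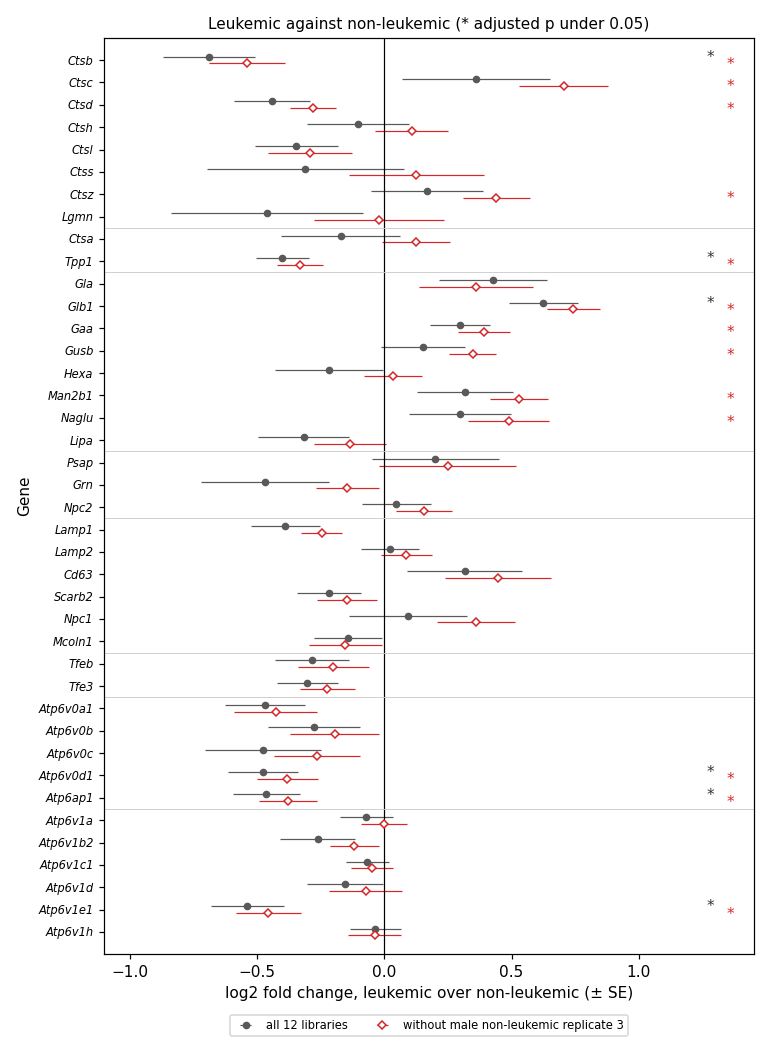
Log2 fold change of each lysosomal gene, leukemic over non-leukemic (x axis, ± SE), with all 12 libraries (grey circles) and without male non-leukemic replicate 3 (red diamonds). Stars mark an adjusted p under 0.05 in the fit of the same colour. Leaving that library out moved 37 of 40 estimates up, and the V0 genes stayed below 0 in both fits.

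Promoter sequence was set beside these calls because TFEB and TFE3 bind E-boxes. RefSeq promoters of build GRCm38.p6, from 250 bases before to 50 bases after each gene start, were matched by symbol for 34 of the 40 members. The palindrome CACGTG, which reads the same on both strands, was found in 13 of 34 members (38.2%) and in 2187 of 27025 genes with a promoter in the table (8.09%). TCACGTG, on either strand and contained in the longer motifs below, was in 12 of 34 (35.3%) and in 4.29% of all. TCACGTGA was in 6 of 34 (17.6%) and in 1.12% of all. TCACGTGA with a G before it and a C after it was in 0 of 34 and in 0.37% of all. The 13 members were Glb1, Gaa, Gla, Naglu, Ctsa, Ctsd, Ctsl, Lgmn, Lamp1, Mcoln1, Atp6v0b, Atp6v0d1 and Atp6v1a. They include members that rose with some set of libraries (Glb1, Gaa, Naglu, Gla) and members that fell with some set (Ctsd, Atp6v0d1, Lamp1, Atp6v0b), so the letters were found on both sides. A match describes the sequence and is not a measured binding site. The stretches below are 60 bases of the gene's own strand, with CACGTG in capitals. Glb1, Gaa and Naglu stand for members that rose with some set of libraries, and Atp6v0d1 and Ctsd for members that fell with some set. Of the genes shown, only Glb1 and Atp6v0d1 passed with all libraries. Lamp1 and Mcoln1 stand for promoters with several copies.
Glb1 (chr9:114401003-114401062, plus strand): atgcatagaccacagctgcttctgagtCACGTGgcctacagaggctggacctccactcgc
Gaa (chr11:119267796-119267855, plus strand): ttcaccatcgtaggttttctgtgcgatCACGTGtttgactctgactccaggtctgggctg
Naglu (chr11:101069994-101070053, plus strand): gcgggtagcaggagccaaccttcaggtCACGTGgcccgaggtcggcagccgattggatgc
Atp6v0d1 (chr8:105566055-105566114, minus strand): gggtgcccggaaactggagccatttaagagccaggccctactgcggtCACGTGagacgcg
Ctsd (chr7:142387893-142387952, minus strand): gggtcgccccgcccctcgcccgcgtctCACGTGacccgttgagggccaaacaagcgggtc
Lamp1 (chr8:13159097-13159156, plus strand): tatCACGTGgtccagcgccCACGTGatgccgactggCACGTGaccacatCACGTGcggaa
Mcoln1 (chr8:3500434-3500493, plus strand): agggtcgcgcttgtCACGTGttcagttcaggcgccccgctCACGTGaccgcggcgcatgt

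The Lamp1 stretch holds 4 copies of CACGTG, the Mcoln1 stretch 2 and the other stretches 1 each. Ctsd has a further copy outside the stretch, for 2 in its window. In Glb1 the motif starts 48 bases before the gene start, in Naglu 73 and in Gaa 140, and in Atp6v0d1 it starts 3 bases before.

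Among the glycosidases, Glb1 was higher in the sorted cells of leukemic mice and was the member with the lowest adjusted p. Its enzyme removes terminal beta-galactose from gangliosides and keratan sulfate. Glb1 was at 113, 136 and 124 CPM in female leukemic libraries and 95.6, 94.1 and 105 CPM in male leukemic libraries, against 67.7, 67.4 and 72.4 CPM in female non-leukemic libraries and 50.1, 68.7 and 80.1 CPM in male non-leukemic libraries. Every leukemic library was above every non-leukemic library, and female leukemic libraries were above male ones. The change was 0.63 ± 0.14 (edgeR adjusted p = 0.00641) with all libraries and 0.74 ± 0.10 (adjusted p = 0.000452) without male non-leukemic replicate 3. It passed with each of the 12 libraries left out in turn, with adjusted p from 0.000452 to 0.0225. In the mouse annotation 5.49% of Glb1 exon bases are shared with Tmppe on the same strand.

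Of the 8 members in the group of glycosidases and lipase, 1 rose with all libraries, where 8.71% of all genes rose. Another 4 passed as higher once male non-leukemic replicate 3 was left out, which made 5 of 8 (9.67% of all genes rose). That library was picked for its high level of the lysosomal genes, so this count is raised by construction. No contrast with all genes is drawn from it. The group's median log2 fold change was 0.30 with all libraries, beside -0.01 over all genes, and 0.38 without that library. In either fit 0 of the 8 members fell. Gaa, the acid alpha-glucosidase that breaks down glycogen, was at 155 to 176 CPM in leukemic libraries (median 168) and 96.7 to 159 CPM in non-leukemic libraries (median 137). Only female non-leukemic replicate 3 reached into the leukemic range. Gaa changed by 0.30 ± 0.12 (adjusted p = 0.105) with all libraries and 0.39 ± 0.10 (adjusted p = 0.0177) without the male library, and it also passed with column totals (adjusted p = 0.0412).

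Man2b1, the lysosomal alpha-mannosidase, was at 404, 634 and 508 CPM in female leukemic and 472, 497 and 449 CPM in male leukemic libraries, against 343, 384 and 297 CPM in female non-leukemic and 277, 359 and 579 CPM in male non-leukemic libraries. Apart from the value of 579 CPM in male non-leukemic replicate 3, the conditions did not overlap. Its change was 0.32 ± 0.19 (adjusted p = 0.289) with all libraries and 0.53 ± 0.11 (adjusted p = 0.00674) without that library. Gusb, the beta-glucuronidase, had 214 to 242 CPM in leukemic libraries (median 221), against 146 to 185 CPM in 5 non-leukemic libraries and 296 CPM in male non-leukemic replicate 3. It changed by 0.15 ± 0.17 (adjusted p = 0.602) with that library and 0.35 ± 0.09 (adjusted p = 0.0187) without it. Naglu, an enzyme of heparan sulfate breakdown, had 38.0 to 63.6 CPM in leukemic libraries (median 45.2) and 23.9 to 50.9 CPM in non-leukemic libraries (median 37.5). The ranges overlapped, and Naglu changed by 0.30 ± 0.20 (adjusted p = 0.357) with all libraries and 0.49 ± 0.16 (adjusted p = 0.0491) without the male library. Among the alternatives run, Man2b1, Gusb and Naglu passed only where male non-leukemic replicate 3 was left out.

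Of the other members of this group, Gla, the alpha-galactosidase that clears globotriaosylceramide, changed by 0.43 ± 0.21 (adjusted p = 0.203). Its level was 14.1 to 28.2 CPM in leukemic libraries (median 26.7) and 12.4 to 24.7 CPM in non-leukemic libraries (median 17.3), with female leukemic replicate 3 the single low leukemic library. Without it Gla rose by 0.60 (adjusted p = 0.0393). Lipa, the lysosomal acid lipase that splits cholesteryl esters, was the only one besides Hexa with a negative estimate, at -0.32 ± 0.18 (adjusted p = 0.260). It had 85.2 to 126 CPM in leukemic libraries (median 106) and 90.6 to 182 CPM in non-leukemic libraries (median 123). Hexa was at -0.22 with all libraries and 0.033 without male non-leukemic replicate 3, and Lipa was at -0.13 without it.

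**Figure D3:**
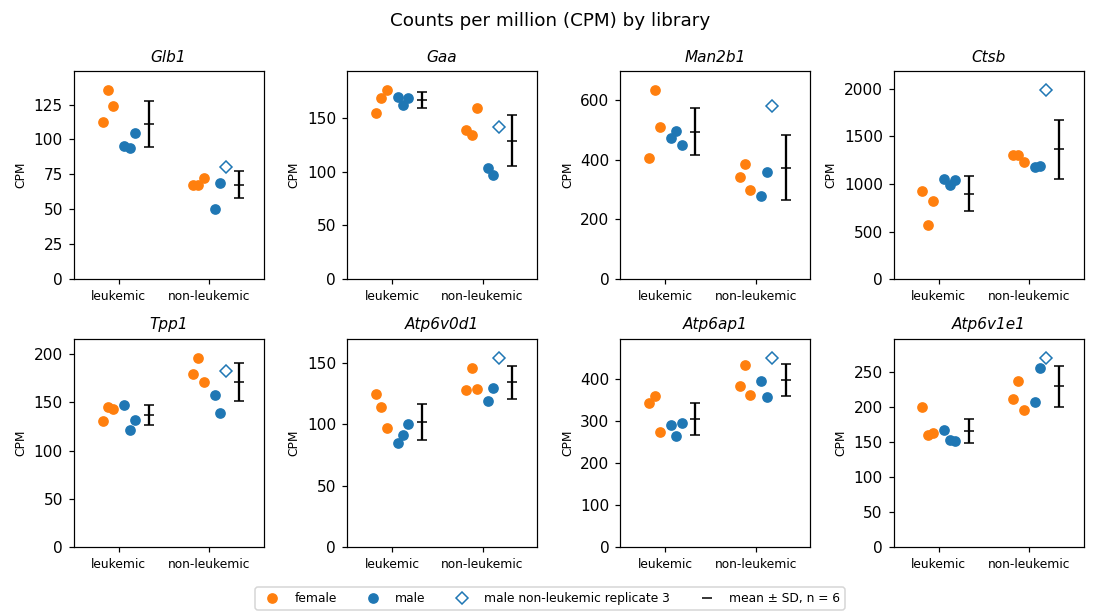
CPM of 8 lysosomal genes in each library (y axes from 0), leukemic left and non-leukemic right, with females in orange, males in blue and male non-leukemic replicate 3 as an open diamond. Bars are the mean ± SD of the 6 libraries of a condition. Glb1 and Ctsb have no overlap between conditions, and the open diamond is the highest non-leukemic point in the panels of Glb1, Man2b1, Ctsb and the 3 V-ATPase genes.

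Among the 8 cysteine and aspartic proteases, Ctsb fell and no member rose with all libraries, where 8.71% of all genes rose and 9.20% fell. Cathepsin B, its product, is a cysteine protease that cuts within chains and from their end. Ctsb was at 930, 567 and 819 CPM in female leukemic libraries and 1051, 989 and 1042 CPM in male leukemic libraries, against 1301, 1309 and 1233 CPM in female non-leukemic libraries and 1182, 1189 and 1992 CPM in male non-leukemic libraries. Every leukemic library was below every non-leukemic library, with female leukemic replicate 2 the lowest. The change was -0.69 ± 0.18 (edgeR adjusted p = 0.0192) with all libraries and -0.54 ± 0.15 (adjusted p = 0.0248) without male non-leukemic replicate 3. Of the single libraries left out in turn, only male leukemic replicate 2 ended the call (adjusted p = 0.0540). On the opposite strand Fdft1 covers 12.8% of Ctsb exon bases, and it changed by -0.10 (adjusted p = 0.756).

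Without the high male library Ctsc and Ctsz rose and Ctsb and Ctsd fell, where 9.67% of all genes rose and 9.94% fell. The group median was -0.33 with all libraries and 0.04 without that one. That library was picked for its high level of the lysosomal genes, so the upward move follows by construction and nothing is read from it. Ctsc encodes cathepsin C, the dipeptidyl peptidase that activates granule serine proteases of neutrophils, mast cells and cytotoxic lymphocytes. Ctsc had 287 to 477 CPM in leukemic libraries (median 423), against 200 to 364 CPM in 5 non-leukemic libraries and 713 CPM in male non-leukemic replicate 3. Male non-leukemic replicates 2 and 3 lay inside or above the leukemic range, and the other 4 non-leukemic libraries lay below it. The change was 0.36 ± 0.29 (adjusted p = 0.455) with all libraries and 0.70 ± 0.18 (adjusted p = 0.0146) without replicate 3. T and NK cell markers and part of the mast cell, basophil and eosinophil markers rose in leukemic libraries, with the sums given above. Of 13 neutrophil markers 9 fell. Male non-leukemic replicate 3, the highest library for Ctsc, also had the highest neutrophil marker sum, 68052 CPM. The part of these cells in the level of Ctsc was not tested. Ctsz, a carboxypeptidase, had 306 to 465 CPM in leukemic libraries (median 405), against 225 to 321 CPM in 5 non-leukemic libraries and 601 CPM in the high one. Its change was 0.17 ± 0.22 (adjusted p = 0.671) with that library and 0.44 ± 0.13 (adjusted p = 0.0349) without it. For both genes leaving out the high library, alone or with female leukemic replicate 1, was the only alternative run in which they passed.

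Ctsd, the aspartic protease cathepsin D, had 370 to 439 CPM in leukemic libraries (median 406) and 426 to 759 CPM in non-leukemic libraries (median 482). Only male leukemic replicate 2 reached the lowest non-leukemic value. Ctsd changed by -0.44 ± 0.15 (adjusted p = 0.0613) with all libraries and -0.28 ± 0.09 (adjusted p = 0.0466) without male non-leukemic replicate 3. It also passed with DESeq2 (adjusted p = 0.0400) and without female leukemic replicate 1 (adjusted p = 0.0292). A read-through gene model, Gm49369, shares 34.4% of Ctsd exon bases on the same strand, so its counts are uncertain. Ctsl, a further cysteine protease, had 23.2 to 45.8 CPM in leukemic libraries and 35.2 to 43.8 CPM in non-leukemic libraries (-0.35 ± 0.16, adjusted p = 0.173), and 26.8% of its exon bases overlap a gene on the opposite strand. Lgmn, the asparaginyl endopeptidase legumain that processes other cathepsins, had 27.2 to 82.1 CPM in leukemic libraries, against 51.9 to 68.4 CPM in 5 non-leukemic libraries and 197 CPM in the high one (-0.46 ± 0.38, adjusted p = 0.457, and -0.021 without that library). Ctss, the cathepsin that trims the invariant chain of MHC class II, had its highest values in single libraries of each condition, 717 CPM in female leukemic replicate 1 and 1140 CPM in male non-leukemic replicate 3. Its other libraries lay between 217 and 415 CPM in leukemic mice and between 298 and 459 CPM in non-leukemic mice. Its estimate was -0.31 with all libraries and 0.13 without male non-leukemic replicate 3, and that of Ctsh, an aminopeptidase, was -0.10 with and 0.11 without it.

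Of the serine peptidases, Tpp1 fell and Ctsa did not pass. Tpp1 removes tripeptides from the ends of proteins, and its loss causes a childhood neuronal ceroid lipofuscinosis. Tpp1 was at 131, 146 and 143 CPM in female leukemic and 147, 122 and 132 CPM in male leukemic libraries, against 180, 196 and 171 CPM in female non-leukemic and 158, 139 and 182 CPM in male non-leukemic libraries. Male non-leukemic replicate 2 alone lay within the leukemic range. The change was -0.40 ± 0.10 (edgeR adjusted p = 0.0179) with all libraries and -0.33 ± 0.09 (adjusted p = 0.0210) without male non-leukemic replicate 3. The call was lost when female non-leukemic replicate 2 (adjusted p = 0.0518), female leukemic replicate 3 (0.0513), male leukemic replicate 2 (0.0697) or male leukemic replicate 3 (0.0605) was left out, and with no filter on low counts (0.0621). Ctsa, the protective protein that stabilises beta-galactosidase and neuraminidase, had 280 to 382 CPM in leukemic libraries, against 230 to 378 CPM in 5 non-leukemic libraries and 625 CPM in the high one. Its estimate was -0.17 ± 0.23 (adjusted p = 0.684) with that library and 0.13 ± 0.13 (adjusted p = 0.579) without it, a change of sign.

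No activator or chaperone gene passed, with or without the high library. Psap, the precursor of the saposins that present lipids to hydrolases, was at 636, 636 and 1566 CPM in female leukemic and 2011, 1742 and 1743 CPM in male leukemic libraries, against 907, 907 and 1261 CPM in female non-leukemic and 1266, 761 and 1383 CPM in male non-leukemic libraries. Female leukemic replicates 1 and 2 were the lowest of the 12 libraries and the other 4 leukemic libraries were the highest, and the change was 0.20 ± 0.25 (adjusted p = 0.649). Grn, which encodes progranulin, had 326 to 398 CPM in leukemic libraries, against 308 to 478 CPM in 5 non-leukemic libraries and 915 CPM in the high one (-0.47 ± 0.25, adjusted p = 0.235, and -0.14 without that library). Npc2, which hands cholesterol to Npc1, had 166 to 216 CPM in leukemic and 151 to 220 CPM in non-leukemic libraries (0.05, and 0.16 without male non-leukemic replicate 3).

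None of the 6 membrane proteins passed over both sexes. Lamp1, the main glycoprotein of the lysosomal membrane, had 354 to 459 CPM in leukemic libraries (median 405) and 438 to 692 CPM in non-leukemic libraries (median 467). Only male leukemic replicate 1 lay inside the non-leukemic range, and the change of -0.39 ± 0.14 missed the threshold (edgeR adjusted p = 0.0651), while DESeq2 gave an adjusted p of 0.0433. Without male non-leukemic replicate 3 it was -0.25 ± 0.08 (adjusted p = 0.0506). Scarb2, the receptor that carries beta-glucocerebrosidase to the lysosome, had 38.1 to 57.5 CPM in leukemic and 45.6 to 63.9 CPM in non-leukemic libraries (-0.22 ± 0.12, adjusted p = 0.273). The tetraspanin gene Cd63 passed in females and is described with the sexes. With all libraries Lamp2 was at 0.022, the cholesterol exporter Npc1 at 0.09 and the calcium channel Mcoln1 at -0.14. They were at 0.09 (Lamp2), 0.36 (Npc1, adjusted p = 0.124) and -0.15 (Mcoln1) without male non-leukemic replicate 3.

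The factors that switch on lysosomal genes did not pass either. Tfeb had 26.7 to 57.7 CPM in leukemic libraries (median 46.5) and 41.1 to 68.0 CPM in non-leukemic libraries (median 48.9), a change of -0.28 ± 0.15 (adjusted p = 0.218). Tfe3 had 36.9 to 51.8 CPM in leukemic libraries (median 47.0) and 44.7 to 62.2 CPM in non-leukemic libraries (median 52.4), a change of -0.30 ± 0.12 (adjusted p = 0.104). Both ranges overlapped. Transcript levels do not show whether either protein was in the nucleus.

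All 5 V0 and accessory subunit genes of the proton pump had negative estimates, and 2 of them fell, where 9.20% of all genes fell. The group median was -0.47 with all libraries and -0.38 without male non-leukemic replicate 3, beside -0.01 and -0.00 over all genes, and the same 2 genes fell in both fits. Without female leukemic replicate 1 the number was 4, with Atp6v0b (adjusted p = 0.0237) and Atp6v0c (adjusted p = 0.0176) added. In that fit 1952 of 16240 genes fell. The number was also 4 without both libraries, where 14.1% of all genes fell. Atp6v0d1, the d subunit that joins the rotor to the V1 stalk, was at 125, 114 and 96.5 CPM in female leukemic and 84.4, 91.0 and 99.9 CPM in male leukemic libraries, against 128, 146 and 129 CPM in female non-leukemic and 118, 129 and 154 CPM in male non-leukemic libraries. Female leukemic replicate 1 alone lay above the lowest non-leukemic library. The change was -0.48 ± 0.14 (edgeR adjusted p = 0.0309), and -0.38 ± 0.12 (adjusted p = 0.0431) without male non-leukemic replicate 3. With single libraries left out it passed only without that library, female non-leukemic replicate 3 or female leukemic replicate 1, and the other 9 omissions gave adjusted p up to 0.110. It also missed the threshold with no filter on low counts (adjusted p = 0.0539) and with the replicate number as a block (0.0575).

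Atp6ap1, the accessory subunit Ac45 needed to assemble V0, was at 343, 359 and 274 CPM in female leukemic and 290, 263 and 294 CPM in male leukemic libraries, against 384, 433 and 361 CPM in female non-leukemic and 396, 356 and 451 CPM in male non-leukemic libraries. The ranges overlapped only because female leukemic replicate 2 (359 CPM) exceeded male non-leukemic replicate 2 (356 CPM). The change was -0.46 ± 0.13 (edgeR adjusted p = 0.0262), and -0.38 ± 0.11 (adjusted p = 0.0343) without male non-leukemic replicate 3. It passed without male non-leukemic replicate 2 or 3, female non-leukemic replicate 3 or female leukemic replicate 1 or 2, and without any of the other 7 libraries adjusted p was up to 0.0973. Atp6v0a1, an isoform of the large membrane subunit, had 58.5 to 171 CPM in leukemic libraries and 104 to 160 CPM in non-leukemic libraries (-0.47 ± 0.16, adjusted p = 0.0565). Its highest value was in female leukemic replicate 2, and it passed without that library (adjusted p = 0.0260), with DESeq2 (0.0324), with limma-voom (0.0490) and with the filter of 5 CPM (0.0487). Atp6v0c, the proton-carrying ring subunit, had 102 to 173 CPM in leukemic libraries and 121 to 233 CPM in non-leukemic libraries (-0.48 ± 0.23, adjusted p = 0.178, and -0.26 without male non-leukemic replicate 3). Its reads may be shared with pseudogene copies. Atp6v0b, another ring subunit, had 118 to 184 CPM in leukemic and 124 to 182 CPM in non-leukemic libraries (-0.28 ± 0.18, adjusted p = 0.336).

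Of the 6 V1 subunit genes 1 fell, where 9.20% of all genes fell, and the group median was -0.11, or -0.06 without male non-leukemic replicate 3. Atp6v1e1, part of the peripheral stalk that holds the sectors together, was at 199, 160 and 163 CPM in female leukemic and 167, 152 and 151 CPM in male leukemic libraries, against 211, 236 and 196 CPM in female non-leukemic and 207, 254 and 270 CPM in male non-leukemic libraries. Female leukemic replicate 1 was the only leukemic library above the lowest non-leukemic one. The change was -0.54 ± 0.14 (edgeR adjusted p = 0.0198), and -0.46 ± 0.13 (adjusted p = 0.0262) without male non-leukemic replicate 3. The call was lost without any 1 of the 3 male leukemic libraries or of female leukemic replicates 2 and 3, with adjusted p up to 0.0747. Atp6v1b2, the nucleotide-binding B subunit, had 230 to 290 CPM in leukemic libraries, against 242 to 282 CPM in 5 non-leukemic libraries and 415 CPM in the high one (-0.26 ± 0.15, adjusted p = 0.256, and -0.12 without that library). Atp6v1d, the central rotor shaft, had 90.9 to 140 CPM in leukemic and 95.3 to 127 CPM in non-leukemic libraries (-0.15 ± 0.15, adjusted p = 0.547, and -0.074 without male non-leukemic replicate 3). The catalytic A subunit gene Atp6v1a, Atp6v1c1 and Atp6v1h had estimates of -0.07 to -0.04.

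With all libraries the members that passed in males were V-ATPase genes, and those that passed in females were Glb1 and Cd63. In males 0 members rose (3.34% of all genes did) and 3 fell (4.04% of all genes did). The member median was -0.26, beside -0.03 over all genes. Without male non-leukemic replicate 3 it was -0.07, beside -0.01, a move upward by construction. The 3 that fell were Atp6v1e1 (-0.80 ± 0.18, edgeR adjusted p = 0.0202), Atp6v0d1 (-0.70 ± 0.18, adjusted p = 0.0353) and Atp6ap1 (-0.67 ± 0.17, adjusted p = 0.0356). Lgmn (-0.95), Ctss (-0.87) and Grn (-0.81), all high in male non-leukemic replicate 3, had larger estimates in males and did not pass. The same held for the V0 gene Atp6v0c (-0.83, adjusted p = 0.127). Atp6v0a1 (-0.72, adjusted p = 0.0562) did not pass either, with an estimate further from 0 than those of Atp6v0d1 and Atp6ap1. With column totals, with no filter and with the replicate block only Atp6v1e1 passed, and adjusted p for Atp6v0d1 was 0.0506, 0.0597 and 0.0732 and for Atp6ap1 0.0605, 0.0590 and 0.0706 in that order. Male leukemic libraries lay below all male non-leukemic libraries for each of them. The count was 0 without male leukemic replicate 1, 2 or 3, 2 without male non-leukemic replicate 1 and 6 without female leukemic replicate 1. It was 1, Atp6v1e1 or Atp6ap1, without male non-leukemic replicate 2 or 3, any female non-leukemic library or female leukemic replicate 2. Over all genes 636 fell in males with all libraries, and 254 to 1100 with single libraries left out. Without male non-leukemic replicate 3, Glb1 (0.62 ± 0.16, adjusted p = 0.0340) and Gaa (adjusted p = 0.0134) rose in males and Atp6v1e1 fell (adjusted p = 0.0458). Of all genes, 3.76% rose and 4.42% fell in that fit.

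In females 2 members rose (3.84% of all genes did) and 0 fell (4.59% of all genes did). The member median was 0.00, beside 0.02 over all genes. DESeq2 and limma-voom also called 0 members higher in males and 0 members lower in females. Glb1 rose by 0.85 ± 0.18 (edgeR adjusted p = 0.0128), and Cd63, a tetraspanin of late endosomes, lysosomes and the granules of basophils and mast cells, rose by 0.87 ± 0.23 (adjusted p = 0.0395). Cd63 was at 618, 882 and 574 CPM in female leukemic libraries, against 324, 461 and 344 CPM in female non-leukemic libraries. In males it was at 391, 363 and 480 CPM in leukemic libraries, against 313, 487 and 504 CPM in non-leukemic libraries. The female groups did not overlap and the male groups did. Female leukemic replicate 2, the highest for Cd63, also had the lowest macrophage marker sum, 496 CPM. The summed eosinophil, basophil and mast cell markers were at 17541, 36238 and 18462 CPM in female leukemic libraries, against 6881, 11254 and 6815 CPM in female non-leukemic libraries. In males they were at 11365, 11803 and 13837 CPM in leukemic libraries, against 5724, 8179 and 8124 CPM in non-leukemic libraries. Their part in the level of Cd63 was not tested. Cd63 no longer passed when female non-leukemic replicate 1 (adjusted p = 0.148) or 3 (0.119) was left out, and neither without female leukemic replicate 1 (0.0537) or 2 (0.0968), nor without male leukemic replicate 1 (0.0537) or male non-leukemic replicate 2 (0.0611). With only the female libraries fitted its adjusted p was 0.0571. The call for Glb1 in females was lost without female non-leukemic replicate 1 (0.0569) or 2 (0.0558). Without male non-leukemic replicate 3, Glb1, Cd63 and Man2b1 rose and Ctsb fell in females, where 4.46% of all genes rose and 5.56% fell. With female leukemic replicate 1 left out as well, pump genes also fell in females. They were Atp6v1e1 (edgeR adjusted p = 0.0287) and Atp6v0c (0.0314), beside Ctsb, Ctsd and Lipa. Glb1 (adjusted p = 0.00989) was then among 5 members that rose in males, where 1364 of all genes rose.

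The effect in females minus the effect in males passed for 0 of the 40 members and for 0.00% of all genes with edgeR, and DESeq2 and limma-voom called 0 members too. Before adjustment 2 members were under 0.05, Cd63 (difference 1.11 ± 0.33, edgeR adjusted p = 0.815) and Atp6v0b (0.72 ± 0.31, adjusted p = 0.819). The V-ATPase calls in males and the calls for Glb1 and Cd63 in females are therefore not shown to differ between the sexes. The difference was above 0 in 31 of 40 members with a median of 0.35, beside 51.3% of all genes with a median of 0.02. Without male non-leukemic replicate 3 it was above 0 in 21 of 40 with a median of 0.03, beside 49.0% of all genes with a median of -0.01. That library is a male one picked for its high level of these genes, so the move downward follows by construction.

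**Figure D4:**
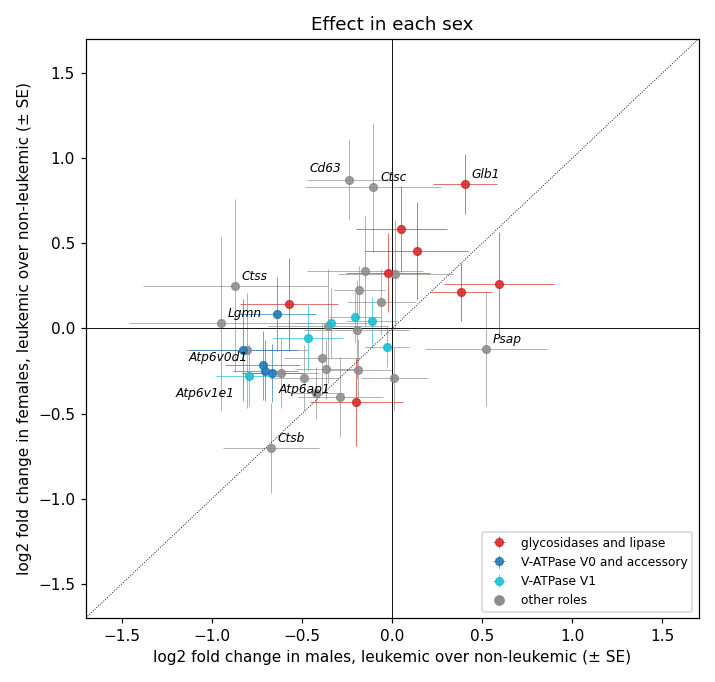
Log2 fold change, leukemic over non-leukemic, of each lysosomal gene in males (x axis) and females (y axis), ± SE, with glycosidases in red, V0 genes in blue, V1 genes in cyan and other roles in grey. The dotted line marks equal effects. Points above it have a higher estimate in females, as 31 of 40 do with all libraries and 21 of 40 without male non-leukemic replicate 3. Cd63 and Glb1 are the genes that rose in females.

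Levels of different members can be set side by side per kilobase of annotated exon. By mean CPM per kilobase Psap was first, at 506 in leukemic and 394 in non-leukemic libraries, then Ctss at 309 in leukemic and 374 in non-leukemic libraries, and Ctsz at 278 in leukemic and 235 in non-leukemic libraries. Ctsb ranked 7 in leukemic libraries, at 149, and 4 in non-leukemic libraries, at 226. Without male non-leukemic replicate 3 the non-leukemic order after Psap was Ctss (281), Ctsb (205), Ctsd (201) and Ctsz (199). The mean of Ctss was then higher in leukemic than in non-leukemic libraries, but it still held female leukemic replicate 1, at 717 CPM. Without both libraries the log2 fold change of Ctss was -0.17. Glb1 ranked 20 in leukemic libraries, at 37.0, and 27 in non-leukemic libraries, at 22.5. Among pump genes Atp6ap1 was first, at 100.4 in leukemic and 131 in non-leukemic libraries. Npc1 was last of the 40, at 1.38 in leukemic and 1.22 in non-leukemic libraries, and the factor genes Tfeb and Tfe3 were at 7.97 and 4.91 in leukemic and 9.16 and 5.71 in non-leukemic libraries. The exon lengths come from an annotation of build GRCm38, while the counts were made on GRCm39. The cDNA kit does not mark strand, and exons of 11 of the 40 members overlap a gene on the opposite strand, 7 of them over more than 5% of their bases (Ctsb, Ctsl, Ctsa, Hexa, Lamp1, Atp6v0b and Npc1), so reads of those pairs cannot be told apart there.

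Other genes of the lysosomal system are set beside 8.71% of all genes rising and 9.20% falling with all libraries. Without male non-leukemic replicate 3 the shares were 9.67% rising and 9.94% falling. Without female leukemic replicate 1 more genes passed, with 1958 of 16240 rising and 1952 falling. Of 35 other hydrolases 4 rose and 4 fell with all libraries, shares near that background, and 8 rose and 4 fell without male non-leukemic replicate 3. Here and in what follows, no contrast with all genes is drawn from counts without that library. It was the highest non-leukemic library in 25 genes of the hydrolase list, so leaving it out raises their estimates. The largest change in that list was in Ctse, an aspartic protease of endosomes that is also found in red cells, at 131 ± 24.3 CPM in leukemic libraries and 1379 ± 601 CPM in non-leukemic libraries (SD, n = 6 each; -3.42 ± 0.30, edgeR adjusted p = 1.32e-05). The erythroid markers fell in the same libraries, and their part in the fall of Ctse was not tested. Acp5, the tartrate-resistant acid phosphatase of osteoclasts and some macrophages, fell (89.8 ± 21.8 CPM in leukemic and 188 ± 33 CPM in non-leukemic libraries, -1.16 ± 0.18, adjusted p = 0.000811). Ctsw, a cathepsin of T and NK cells, rose by 1.44 ± 0.25 (adjusted p = 0.00157), beside the rise of T and NK cell markers. Arsb, the arylsulfatase that acts on dermatan sulfate, rose by 0.88 ± 0.15 (adjusted p = 0.00173), and all leukemic libraries but female leukemic replicate 1 (89.2 CPM) were above all non-leukemic ones.

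Of 8 tested V-ATPase subunits outside the member set, Atp6v0a2, another isoform of the large membrane subunit, rose (136 ± 24.9 CPM in leukemic and 86.9 ± 14.3 CPM in non-leukemic libraries, 0.56 ± 0.14, adjusted p = 0.0128) and 0 fell, or 2 without female leukemic replicate 1. Its direction was opposite to the estimate for Atp6v0a1. Of 24 tested other lysosomal membrane proteins 1 rose and 2 fell: the channel gene Mcoln2 rose by 0.71 ± 0.20 (adjusted p = 0.0254), the channel gene Tpcn1 changed by -1.35 ± 0.24 (adjusted p = 0.00201) and the arginine sensor Slc38a9 by -1.08 ± 0.25 (adjusted p = 0.00903). In that list 3 rose and 2 fell without male non-leukemic replicate 3, and 1 rose and 4 fell without female leukemic replicate 1. Of 21 genes of the TFEB family and nutrient sensing 0 rose and 2 fell, the mTOR complex subunit Mlst8 (-0.68 ± 0.17, adjusted p = 0.0148) and the folliculin partner Fnip2 (-0.79 ± 0.21, adjusted p = 0.0193), and 1 rose and 3 fell without female leukemic replicate 1.

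Of 14 genes for mannose 6-phosphate tagging and enzyme sorting 0 rose and 1 fell, the sorting adaptor Gga2 (-0.70 ± 0.17, adjusted p = 0.0115), and 2 rose without female leukemic replicate 1. Of 15 genes for lysosome fusion and positioning 0 passed with all libraries, and 1 rose and 1 fell without female leukemic replicate 1. Of 7 tested cathepsin inhibitors 1 rose, Cst7, the cystatin that inhibits cathepsin C and is made by NK cells, T cells and some myeloid cells. It was at 162 ± 49.6 CPM in leukemic and 67.3 ± 19.6 CPM in non-leukemic libraries (1.21 ± 0.26, adjusted p = 0.00688), with no overlap between conditions. Of 16 autophagy genes 0 rose and 4 fell with all libraries, where 8.71% of all genes rose and 9.20% fell. Without female leukemic replicate 1, 1 rose and 8 fell, where 1958 of 16240 genes rose and 1952 fell. The 4 were the phosphoinositide-binding Wipi1 (-1.88 ± 0.30, adjusted p = 0.00093) and Wipi2 (-0.71 ± 0.16, adjusted p = 0.00850), the scramblase Atg9a (-0.90 ± 0.17, adjusted p = 0.00240) and Map1lc3a (-0.54 ± 0.15, adjusted p = 0.0294). Wipi1 was at 10.4 ± 3.88 CPM in leukemic libraries and 36.3 ± 12.7 CPM in non-leukemic libraries (SD, n = 6 each), with every leukemic library below every non-leukemic one.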

How the data were processed

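The authors deposited unnormalized counts per gene, 1 column per library. Build GRCm39 and the tools STAR 2.7.9a with fastp 0.23.1 and bcl2fastq 2.19.1, featureCounts with Subread 2.0.1, and R 4.0.2 with DESeq2 1.28.1 stand in the submitters' processing notes, with no settings. Per the labels' protocols, 1 ng of RNA was pre-amplified and 150 pg of cDNA was tagmented, a method that marks neither strand nor single molecules, so intervals cover counting error only. A count of 0 allows up to 3 counts, or 0.1 to 0.177 CPM.

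Here libraries were grouped by labelled condition and sex, genes were filtered with filterByExpr, and TMM-scaled counts were tested with the two-sided quasi-likelihood F test of edgeR 4.0.16 (R 4.3.3). The main comparison had sex as a term, and the effect in each sex and their difference were contrasts of 4 group means. Adjusted p (Benjamini-Hochberg) covers all genes tested, with 0.05 as the threshold. The standard error is the estimate's size over the square root of F. CPM were computed from library totals without TMM factors. The method was tested on simulated data. The alternatives were RLE factors, column totals, DESeq2 1.42.0, limma-voom (limma 3.58.1), no low-count filter, at least 5 CPM in 3 libraries, a replicate block, no sex term, 1 sex at a time and libraries left out. Replicates of a group differed by more than sampling noise, with a chi-square per degree of freedom of at least 24.7. Promoter motifs and exon lengths were read with Python 3.11.15.

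The 40 members and the gene lists were chosen with earlier results of these data known. Full statistics were given for members past the threshold in any comparison or without male non-leukemic replicate 3, and for up to 2 further members per role with the lowest p. In each pathway list up to 4 genes with the lowest p among those that passed are named, and Adgre1 and Ptprc were named whatever their values. Ctss, Npc2, Atp6v0b, Tmppe, Gm49369, Fdft1 and members given by estimate alone were added after their values were seen.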

Additional observations from a re-analysis of the deposited data

Results flagged for a closer look

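A library was marked where its gap to the nearest of the other 5 libraries of its condition was large against the range of the 6. Of 82 such groups (40 genes and their summed level in each condition) 22 were marked, where chance marks about 1 in 20 independent groups, and 16 of the marks were in male non-leukemic replicate 3. That library was already known to be high for these genes, and genes of 1 library are not independent, so the number of marks is a description. In that library, Ctsb was at 1992 CPM, Ctsc at 713 CPM, Ctsd at 759 CPM, Ctsh at 296 CPM, Ctss at 1140.3 CPM, Ctsz at 601 CPM and Lgmn at 197 CPM. Among the other enzymes Ctsa was at 625 CPM, Gusb at 296 CPM, Hexa at 375 CPM and Man2b1 at 579 CPM. Grn was at 915 CPM, Lamp1 at 692 CPM, Atp6v0c at 233 CPM and Atp6v1b2 at 415 CPM. The summed level of the 40 genes was 14839.7 CPM there, against 8611 to 9794 CPM in the other 5 non-leukemic libraries.

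In female leukemic replicate 1, Atp6v0b was at 184 CPM, Atp6v0c at 173 CPM and Atp6v1e1 at 199 CPM, each the highest of the 6 leukemic libraries. Gla was low in female leukemic replicate 3, at 14.1 CPM, against 24.2 to 28.2 CPM in the other leukemic libraries. Mcoln1 was high in female non-leukemic replicate 3, at 53.7 CPM, and Atp6v1h in male non-leukemic replicate 2, at 146 CPM. The marks were not tested further.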

How the results depend on the processing

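Over both sexes, 1 member rose and 5 fell. The number that rose was 2 with column totals and 7 with both outlying libraries left out, and 1 to 7 with single libraries left out. The number that fell was 8 with DESeq2, 3 with no filter and 9 with both left out, and 0 to 8 with single libraries left out. In males 0 rose and 3 fell: 5 rose with both left out and 0 to 2 with single libraries left out, and 1 fell with column totals, no filter or the replicate block, 5 with both left out and 0 to 6 with single libraries left out. In females 2 rose and 0 fell: 1 rose with only female libraries fitted and 0 to 3 with single libraries left out, and 5 fell with both left out and 0 to 1 with single libraries left out. The calls over all genes moved too. Over both sexes 1373 genes rose and 1449 fell, against 998 to 1958 and 1025 to 1952 with single libraries left out. With DESeq2 1887 rose and 1830 fell, and with no filter fewer than 1449 fell. With both outlying libraries left out 2421 rose and 2296 fell. In males 526 rose and 636 fell with all libraries, against 1364 and 1364 with both left out. In females 723 fell with all libraries, against 1227 with both left out. The shifts in member counts are therefore not shown to be particular to the members. The replicate numbers did not pair the libraries, with same-number correlations of -0.113 to 0.0782. With the replicate block 4 members fell over both sexes, and Atp6v0d1 missed the threshold (adjusted p = 0.0575). Ctsa, at -0.17, turned to 0.061 with both left out and ranged over -0.27 to 0.13 with single libraries left out, the highest without male non-leukemic replicate 3. The log2 ratio of summed CPM was -0.07, -0.15 with TMM and -0.11 to 0.08 with single libraries left out. Precision is limited by 3 libraries per group.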
